A study of Rattus norvegicus with 39 samples.

Results

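Livers of rats killed at 0 hr of sham surgery were compared with livers of rats that were never operated, which addresses how anesthesia, a midline incision and handling of the liver change its transcripts when no vessel is blocked. Its members are 6 of the 39 arrays in the study, 3 of 0 hr sham livers and 3 of unoperated livers, chosen by their labels alone and compared without pairing over all 23409 probe sets of coding genes. The animals were male Wistar rats aged 5 to 6 weeks by the study's methods, and all had free access to food and water. The 0 hr shams were anesthetized with isoflurane in mid-morning, opened, and had the liver manipulated as if a clamp were put on and taken off, and they were killed at the time that corresponds to no reperfusion. The unoperated animals had no surgery. The remaining arrays came from shams at 0.5, 2 and 6 hr and from reperfused and non-ischemic lobes of rats given 30 min of ischemia. The time of day at which unoperated rats were killed, when each rat last ate and which lobe of a sham or unoperated liver was sampled are not stated in the sources used here, so these cannot be told apart from the surgery. Whole liver was measured, and in such samples fewer cells of a type and less RNA per cell cannot be told apart.

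Anesthesia and laparotomy set off stress hormone release, mainly glucocorticoids, catecholamines and glucagon. The liver answers such signals, like it answers fasting, by making glucose from amino acids. In fasting it also shuts down fat and sterol synthesis. The enzymes of fatty acid synthesis follow insulin and the transcription factors SREBP-1c and ChREBP, and those of cholesterol synthesis follow SREBP-2. Immediate early genes, which need no new protein to be switched on, answer handling and growth signals within minutes. In young rats a share of hepatocytes still divides, so transcripts of mitosis are measurable in intact liver.

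Intensities were read from Affymetrix Rat Transcriptome 1.0 arrays, converted to log2, and tested with limma. Its Benjamini-Hochberg adjusted p-values are called q here, and a probe set passed when q was under 0.05. A difference of 1 on the log2 scale is a doubling. Differences are 0 hr sham minus unoperated, with the moderated standard error (SE) of limma, and n was 3 rats per group throughout. The array medians of the 6 arrays lay between 39.9 and 41.7 intensity units. Hepatocyte markers had a summed log2 level of 22.18 to 22.24 in shams and 22.23 to 22.25 in unoperated livers, and in limma's test 0 of their 11 probe sets passed. Before adjustment 0 had a p under 0.05, and the median difference was -0.05.

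At 0 hr, 270 probe sets (1.15%) differed between sham and unoperated livers, 87 higher in shams (0.372%) and 183 lower (0.782%). Those with 1 gene symbol, 80 higher and 148 lower, stood for 76 genes with higher and 146 genes with lower intensity. The rest had no symbol or several and are not in these gene counts. Among the largest rises were those of Sds, Irs2, Igfbp1 and Serpina7, and among the largest falls those of Rrm2, Cfap95, Kif20a and Ppp1r3b. A difference of at least 2 on the log2 scale was found for 20 probe sets in each direction. Without correction, 4025 probe sets (17.2%) had a p under 0.05, 1701 higher and 2324 lower. The smallest q-value was 0.0191. On all 270 called probe sets the sham and unoperated arrays did not overlap, which was true of 22.1% of all probe sets.

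The 3 sham livers were not alike. Over all probe sets, the mean Euclidean distance on the log2 scale was 70.6 between sham and unoperated arrays, 58.5 among sham arrays and 43.2 among unoperated arrays. The between-group distance exceeded the mean within-group distance by 19.7 (exact permutation test over 20 assignments, p = 0.1, the smallest that 3 against 3 arrays can give). Sham replicate 2 lay at a mean distance of 55.1 from the unoperated arrays, against 74.1 for replicate 1 and 82.4 for replicate 3. It had the lowest value of the 3 shams for 51 of the 87 risen probe sets and the highest for 128 of the 183 fallen ones. Without replicate 2, the test called 1750 probe sets (7.48%), among them all 270. Without sham replicate 1 it called 2 and without sham replicate 3 it called 22, and without unoperated replicate 1, 2 or 3 it called 0, 1 and 0. At those 5 settings 3044 to 3388 probe sets had an unadjusted p under 0.05.

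**Figure D1:**
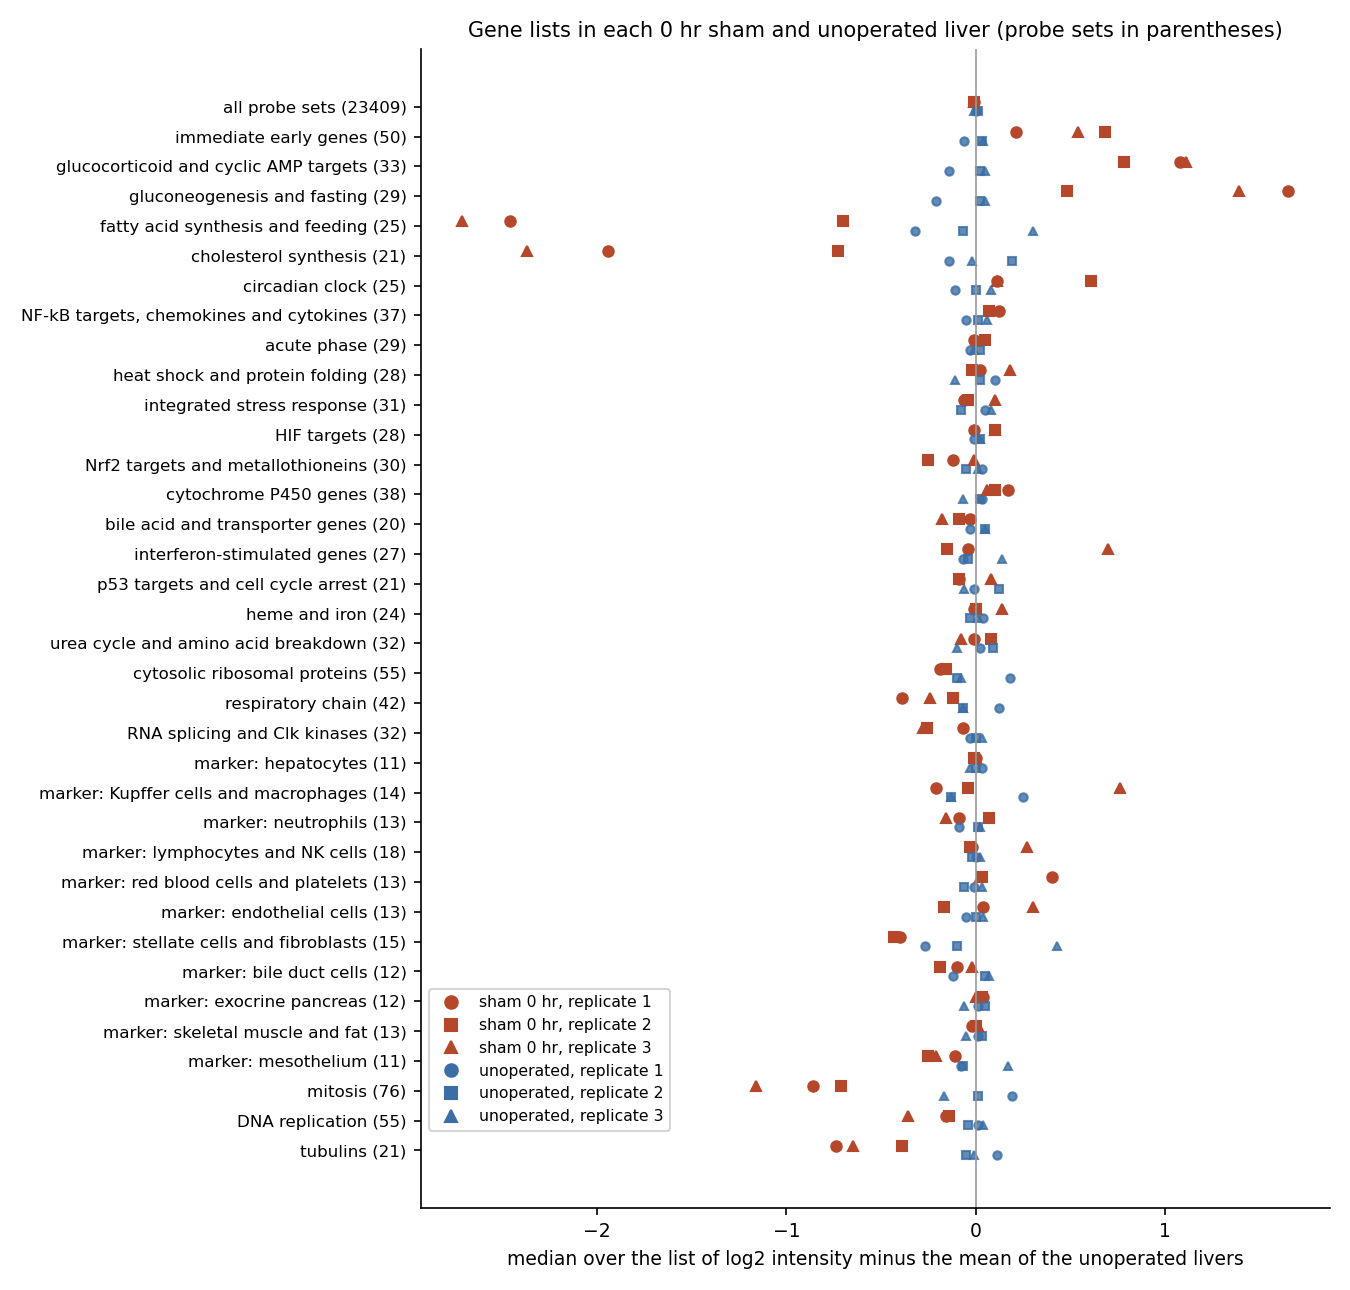
Each row is a gene list and each symbol 1 liver, placed at the median over the list's probe sets of the log2 intensity minus the mean of the 3 unoperated livers (x axis, log2 units). Sham replicates 1 and 3 sit at -2.46 and -2.71 for fatty acid synthesis and replicate 2 at -0.70, whereas all 3 shams sit between -1.16 and -0.71 for mitosis.

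The promoters of called genes were read to show what sequence elements stand in front of them. Promoter sequences of RefSeq (build GRCr8) were matched by symbol for 64 of the 76 risen genes and 119 of the 146 fallen genes, and the 250 bases before the start site were searched on both strands. Mitotic genes are shown first, because 32 of them fell together, 26 of which had a promoter entry. Capitals mark CCAAT boxes (CCAAT, or ATTGG on the other strand) and the cell cycle homology region (TTTGAA, or TTCAAA on the other strand), which are known in mammals as binding sites of NF-Y and of the DREAM and MMB complexes at genes expressed in mitosis. The sequences are written 5′ to 3′ in the direction of the gene and end at the base before the start site. They are Ccnb2 (chr8:79981659-79981908, minus strand), Hmmr (chr10:25665216-25665465, minus strand), Cdc20 (chr5:137255800-137256049, minus strand) and Top2a (chr10:84473094-84473343, minus strand).
Ccnb2: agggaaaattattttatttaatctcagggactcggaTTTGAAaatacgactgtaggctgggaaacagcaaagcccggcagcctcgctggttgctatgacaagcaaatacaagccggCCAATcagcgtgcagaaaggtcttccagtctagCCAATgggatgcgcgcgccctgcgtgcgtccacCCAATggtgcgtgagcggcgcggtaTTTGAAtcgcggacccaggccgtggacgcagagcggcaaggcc
Hmmr: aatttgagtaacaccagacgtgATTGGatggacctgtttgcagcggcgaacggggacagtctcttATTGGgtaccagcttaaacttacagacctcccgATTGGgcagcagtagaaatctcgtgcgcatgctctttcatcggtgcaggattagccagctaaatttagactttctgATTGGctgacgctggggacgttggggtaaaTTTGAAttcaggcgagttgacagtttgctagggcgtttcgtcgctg
Cdc20: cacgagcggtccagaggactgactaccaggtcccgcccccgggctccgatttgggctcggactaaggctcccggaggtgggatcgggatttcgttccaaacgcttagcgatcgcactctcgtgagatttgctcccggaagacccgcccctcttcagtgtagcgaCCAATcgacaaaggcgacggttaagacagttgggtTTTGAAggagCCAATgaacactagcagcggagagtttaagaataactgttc
Top2a: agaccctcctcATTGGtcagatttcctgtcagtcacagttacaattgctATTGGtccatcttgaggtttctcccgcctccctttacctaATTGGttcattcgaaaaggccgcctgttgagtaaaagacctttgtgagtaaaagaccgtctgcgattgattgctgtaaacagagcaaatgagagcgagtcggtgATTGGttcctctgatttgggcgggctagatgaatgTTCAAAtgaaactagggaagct
Ccnb2 held 2 cell cycle homology regions and 3 CCAAT boxes in this window, Hmmr 1 and 4, Cdc20 1 and 2, and Top2a 1 and 4. Of the 26 promoters of called mitotic genes, 15 (57.7%) held TTTGAA and 19 (73.1%) held CCAAT, against 16% and 34.3% of all 27457 promoters. Over all 119 promoters of fallen genes the shares were 24.4% (29) and 52.1% (62), and the mitosis list was chosen after values were seen.

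Igfbp1, Nr4a1 and Ppp1r15a are shown because each rose in the shams and each has a known kind of element to look for. In Igfbp1 (chr14:86261027-86261276, plus strand) capitals mark the insulin response sequence CAAAACA, through which FoxO factors act when insulin is low. In Nr4a1 (chr7:134259888-134260137, plus strand) and Ppp1r15a (chr1:105139597-105139846, minus strand) they mark the core of the cyclic AMP response element (TGACG, or CGTCA on the other strand), and in Ppp1r15a also the full element TGACGTCA, which contains 2 overlapping cores.
Igfbp1: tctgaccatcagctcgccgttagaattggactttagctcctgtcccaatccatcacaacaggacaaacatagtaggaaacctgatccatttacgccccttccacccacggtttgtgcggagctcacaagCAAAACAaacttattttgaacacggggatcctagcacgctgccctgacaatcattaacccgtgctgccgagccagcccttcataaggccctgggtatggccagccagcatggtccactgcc
Nr4a1: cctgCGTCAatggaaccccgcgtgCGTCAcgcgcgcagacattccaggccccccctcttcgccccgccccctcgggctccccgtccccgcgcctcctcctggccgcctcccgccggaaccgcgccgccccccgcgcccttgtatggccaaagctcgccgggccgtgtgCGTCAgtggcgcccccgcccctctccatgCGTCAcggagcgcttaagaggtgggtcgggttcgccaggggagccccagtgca
Ppp1r15a: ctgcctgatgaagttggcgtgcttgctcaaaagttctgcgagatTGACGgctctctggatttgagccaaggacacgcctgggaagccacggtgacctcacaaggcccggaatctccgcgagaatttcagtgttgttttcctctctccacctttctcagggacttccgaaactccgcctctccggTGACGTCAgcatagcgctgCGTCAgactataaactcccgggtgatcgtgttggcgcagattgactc
CAAAACA stood in 5 of 64 promoters of risen genes (7.81%) and in 5.46% of all promoters. The core stood in 23 of 64 promoters of risen genes (35.9%), in 30 of 119 of fallen genes (25.2%), 9 of the 26 mitotic ones (34.6%) among them, and in 19% of all. TGACGTCA stood in 5 of 64 (7.81%), 6 of 119 (5.04%) and 1.7% of all. These are matches of letters and no test was made of them.

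Among probe sets with 1 gene symbol, the 3 largest rises were those of Sds, Irs2 and Igfbp1. Sds, serine dehydratase, which turns serine into pyruvate for glucose synthesis, had log2 intensities of 11.34, 8.90 and 12.03 in shams, against 5.48, 6.26 and 5.32 in unoperated livers. The difference was 5.07 (SE 0.786, q = 0.0471), a ratio of 33.6. Irs2, an adaptor of the insulin receptor that is induced in fasting, stood at 11.99, 10.70 and 13.02 in shams, against 7.77, 8.70 and 7.52 in unoperated livers (difference 3.91, SE 0.604, q = 0.0466). Igfbp1, a secreted binding protein of insulin-like growth factors that insulin represses, reached 19.19, 18.74 and 19.45 in shams, against 14.99, 15.29 and 16.43 in unoperated livers (difference 3.56, SE 0.389, q = 0.0285). The sham values of Igfbp1 lie near the upper end of the array's range. Tat, tyrosine aminotransferase, a classical glucocorticoid target, had 18.58, 18.20 and 18.92 in shams, against 16.30, 17.03 and 16.74 in unoperated livers (difference 1.88, SE 0.243, q = 0.0366). Slc7a2, an arginine carrier, rose by 1.71 (q = 0.0237), and Slc25a15, which carries ornithine into mitochondria for the urea cycle, by 1.11 (q = 0.0255). Nags, which makes the activator of the first enzyme of the urea cycle, fell, with 9.77, 9.77 and 9.21 in shams, against 10.82, 10.66 and 10.76 in unoperated livers (difference -1.16, q = 0.0432). Gys2, liver glycogen synthase, rose by 1.84 (q = 0.0452), and Ugp2, which makes the sugar donor of glycogen, by 1.05 (q = 0.0441). Ppp1r3b, a subunit that directs protein phosphatase 1 to glycogen, went the other way, with 6.01, 7.09 and 5.82 in shams, against 9.10, 8.91 and 8.93 in unoperated livers (difference -2.68, SE 0.322, q = 0.0337).

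Gene lists here and below were chosen with earlier results of these data known or, where said, after values were seen. Over all probe sets, 0.372% rose and 0.782% fell. Of 32 probe sets of the urea cycle and amino acid breakdown, 3 rose (9.38%: Sds, Tat and Slc25a15) and 1 fell (3.12%: Nags). The median difference of that list was -0.03, with 13 positive and 19 negative differences. Of 29 probe sets of gluconeogenesis and fasting, 4 rose (13.8%: Sds, Irs2, Igfbp1 and Tat) and none fell. The median difference was 1.38, against -0.006 for all probe sets. Another 11 of them were higher with an unadjusted p under 0.05 and did not pass. Sham replicate 2 had the smallest median shift on this list, with 0.48 above the unoperated mean, against 1.65 in replicate 1 and 1.39 in replicate 3. The next 3 genes, targets of the fatty acid sensor PPARα, are named after their values were seen. Cpt1a, the gatekeeper of fatty acid oxidation, had 16.60, 14.09 and 16.85 in shams, against 13.28, 13.10 and 13.40 in unoperated livers (difference 2.58, q = 0.142). Cyp4a1, a fatty acid hydroxylase, had 19.45, 16.45 and 19.58, against 14.96, 16.02 and 16.08 in unoperated livers (difference 2.81, q = 0.176). Ehhadh, an enzyme of peroxisomal oxidation, had 18.13, 14.91 and 18.92, against 14.89, 15.45 and 14.91 in unoperated livers (difference 2.24, q = 0.316). For Ehhadh the value of sham replicate 2 lay within the unoperated range, and for the other 2 genes it lay above all unoperated values but closer to them than to the other shams. Without replicate 2, 17 list members passed, and without either of the other shams none did. G6pc1 and Pck1, the enzymes that commit carbon to glucose, differed by 1.38 and 0.95 without passing (q = 0.132 and 0.119).

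**Figure D2:**
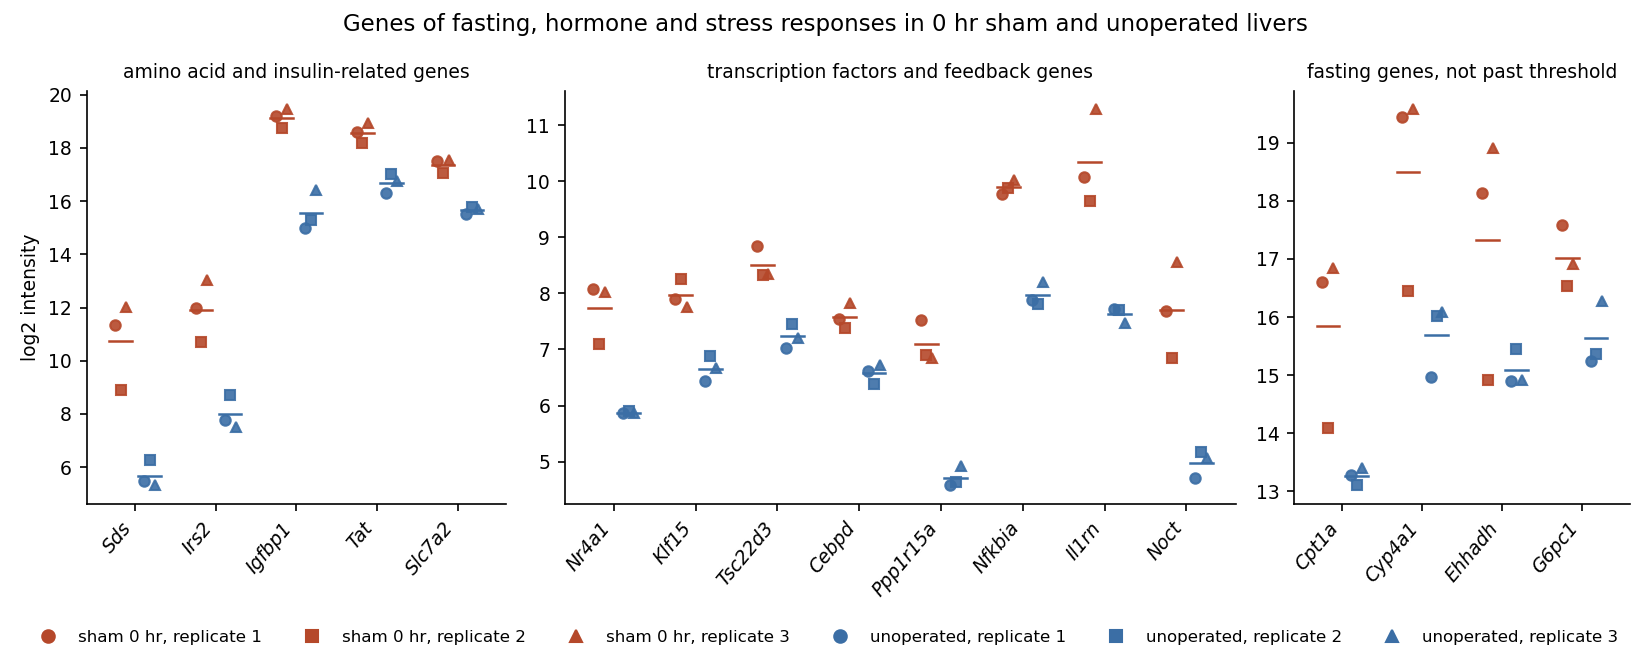
Log2 intensity (y axis) of genes of fasting, hormone and stress responses in each of the 3 sham (red-brown, left) and 3 unoperated livers (blue, right), with the mean as a line. Shams lie above unoperated livers in the left and middle panels without overlap, as holds for every called probe set. Sham replicate 2 (square) lies apart from the other shams for Cpt1a, Cyp4a1 and Ehhadh in the right panel.

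Among targets of glucocorticoids and cyclic AMP, 6 of 33 probe sets rose (18.2%, against 0.372% of all probe sets) and none fell. The median difference was 0.95. All 3 shams shifted on this list, by 1.08, 0.78 and 1.11 in replicates 1, 2 and 3. Without replicate 2, 14 members passed, and without sham replicate 1 or 3, 0 did. Besides Irs2 and Tat the risen members were regulators. Nr4a1, an orphan nuclear receptor and immediate early gene, had 8.08, 7.10 and 8.03 in shams, against 5.86, 5.90 and 5.86 in unoperated livers (difference 1.86, SE 0.262, q = 0.0411). Klf15, a factor that drives amino acid breakdown, had 7.90, 8.26 and 7.75 in shams, against 6.43, 6.88 and 6.67 (difference 1.31, q = 0.0366). Tsc22d3, the glucocorticoid-induced leucine zipper, had 8.85, 8.33 and 8.34 in shams, against 7.03, 7.46 and 7.21 in unoperated livers (difference 1.27, q = 0.0419). Cebpd, a factor of the acute response, rose by 1.00 (q = 0.0437). For these 4 regulators the arrays did not overlap, as on all 270 called probe sets, and replicate 2 did not stand apart except for Nr4a1. Nr1i2, the pregnane X receptor, which drives drug-metabolizing genes, rose by 1.07 (q = 0.0255).

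Immediate early genes moved less uniformly. Of 50 probe sets, 3 rose (Nr4a1, Apold1 and Plk3), which is 6% against 0.372% of all probe sets, and none fell. At an unadjusted p under 0.05, 22 were higher and 1 lower, against 1701 and 2324 of all 23409 probe sets. The median difference was 0.46. Apold1, an early response gene of vessel walls, had 6.54, 6.62 and 6.53 in shams, against 5.38, 5.40 and 5.52 in unoperated livers, a difference of 1.13 with little spread (SE 0.0766, q = 0.0191). Plk3, a stress-activated kinase, rose by 0.91 (q = 0.0466). Fos, a subunit of AP-1, had 5.13, 5.80 and 5.42 in shams, against 4.42, 4.74 and 4.73 in unoperated livers. That difference of 0.82 did not pass (q = 0.102). The arrays did not overlap, which was true of 22.1% of all probe sets, and the unoperated mean of 4.63 was under a log2 intensity of 5. Egr1 and Jun, named after their values were seen, differed by 2.95 and 1.72 without passing (q = 0.153 and 0.258), with Egr1 at 12.20, 13.84 and 10.75 in shams, against 8.19, 9.73 and 10.02 in unoperated livers. On the whole list sham replicate 2 shifted most, by 0.68, against 0.21 in replicate 1 and 0.54 in replicate 3.

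Nfkbia, Il1rn and Ppp1r15a, which restrain inflammatory or stress signals, rose. Nfkbia, which holds NF-kB in the cytoplasm, had 9.77, 9.87 and 10.02 in shams, against 7.89, 7.81 and 8.20 in unoperated livers (difference 1.92, SE 0.129, q = 0.0191). Il1rn, the secreted antagonist of the interleukin-1 receptor, had 10.08, 9.65 and 11.28 in shams, against 7.72, 7.70 and 7.48 in unoperated livers (difference 2.70, SE 0.397, q = 0.0441). Ppp1r15a, also called GADD34, which reverses the block on translation in the integrated stress response, had 7.53, 6.90 and 6.85, against 4.58, 4.64 and 4.92 in unoperated livers (difference 2.38, SE 0.203, q = 0.0202). The unoperated mean of Ppp1r15a was 4.71, under a log2 intensity of 5. The lists they belong to did not shift as a whole. The NF-kB targets had 2 risen (5.41%) and 1 fallen (2.7%) of 37 probe sets, with a median of 0.07. The integrated stress response had 1 risen of 31 (3.23%), with a median of -0.13. Over all probe sets, 0.372% rose and 0.782% fell. The fallen NF-kB target was Icam1, an adhesion molecule for leukocytes, with 9.22, 9.26 and 9.28 in shams, against 9.91, 10.27 and 9.99 in unoperated livers (difference -0.81, q = 0.0382). No member of the acute phase list (29 probe sets, median -0.04) or of the heat shock list (28 probe sets, median -0.01) passed. At an unadjusted p under 0.05 these lists had 4 and 5 probe sets higher and 0 and 2 lower. On the acute phase list the lowest p was that of Il6st, the shared receptor subunit of interleukin-6 signals (difference 0.89, q = 0.089). On the heat shock list it was that of Herpud1, a protein of the stressed endoplasmic reticulum (difference 1.26, q = 0.0725).

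Other large rises were in single genes of varied roles. Serpina7, thyroxine-binding globulin, had 10.54, 10.41 and 11.26 in shams, against 7.55, 7.66 and 8.01 in unoperated livers (difference 3.00, SE 0.243, q = 0.0191). Tcim, a small regulator of proliferation, rose on both of its probe sets, by 2.95 and 2.43 (q = 0.0191 each). Noct, nocturnin, a clock-driven enzyme, had 7.68, 6.85 and 8.56 in shams, against 4.71, 5.18 and 5.06 in unoperated livers (difference 2.71, q = 0.0462), whose mean of 4.98 was under a log2 intensity of 5. It was the 1 called member of the 25 circadian clock probe sets (4% higher, against 0.372% of all), whose median difference was 0.17. Per1, named after its values were seen, differed by 1.74 (q = 0.0577). Alas1, the rate-limiting enzyme of heme synthesis, had 16.22, 16.30 and 17.56 in shams, against 13.96, 13.87 and 14.63 in unoperated livers (difference 2.54, q = 0.0486). Rasgef1b rose by 2.62 (q = 0.0255), Ifrd1 by 2.26 (q = 0.0382) and Pxmp4, a peroxisomal membrane protein, by 2.12 (q = 0.0348). Ptp4a1, a small phosphatase of regenerating liver, and its near copy Ptp4a1l1 rose by 2.10 and 2.39, and probes of near copies may read each other's RNA. The 2 probe sets of Cyp3a9 disagreed, with a difference of 2.59 (q = 0.0255) on one and of -0.88 (q = 0.128) on the other, so no direction is given for this gene.

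Genes of cell division fell in number. The lists of mitosis, DNA replication and tubulins were drawn up after values were seen, so their counts describe these arrays and are not independent of the choice. Of 76 mitosis probe sets, 32 fell (42.1%, against 0.782% of all probe sets), none rose, and the median difference was -0.90. All 3 shams were shifted, by -0.86, -0.71 and -1.16 in replicates 1, 2 and 3. Without replicate 2, 52 of the probe sets passed, without sham replicate 1 or 3, 0 and 2 did, and without any 1 unoperated liver 0 did. Kif20a, a motor protein of late mitosis, had 6.13, 6.33 and 5.46 in shams, against 9.03, 8.76 and 8.50 in unoperated livers (difference -2.78, SE 0.25, q = 0.0205). Mki67, the antigen Ki-67 of cycling cells, had 8.14, 8.80 and 7.11 in shams, against 11.06, 10.55 and 10.44 in unoperated livers (difference -2.67, SE 0.421, q = 0.0497). The cyclins Ccna2 and Ccnb2, which drive entry into mitosis, fell by 2.61 and 2.45 (q = 0.0421 and 0.0365). Ccnb2 stood at 6.13, 6.64 and 5.54 in shams, against 8.97, 8.29 and 8.39 in unoperated livers. Hmmr, a spindle protein, had 5.62, 5.72 and 5.25 in shams, against 8.02, 7.81 and 7.29 in unoperated livers (difference -2.18, q = 0.0255). Top2a, which untangles chromosomes, fell by 2.18 (q = 0.0432), and Cdc20, an activator of the anaphase-promoting complex, by 2.10 (q = 0.0477). Cdk1, the kinase of mitosis, fell by 1.00 (q = 0.0466), the checkpoint kinase Bub1 by 1.51 (q = 0.0205) and the kinase Aurkb by 1.22 (q = 0.0348). The sham means of Cdc20, Cdk1 and Aurkb were 5.02, 5.02 and 4.82, close to the log2 intensity of 5 below which 10585 of the 23409 probe sets lay in both groups. Ckap2, a spindle protein, and Ckap2-ps3, annotated as its pseudogene, both fell by 2.41 and may share probes.

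Of 55 replication probe sets, 5 fell (9.09%, against 0.782% of all) and 1 rose (1.82%, against 0.372% of all), with a median of -0.21. Rrm2, the ribonucleotide reductase subunit that limits the supply of deoxynucleotides, had 7.12, 8.08 and 5.61 in shams, against 11.54, 11.53 and 10.46 in unoperated livers. Its difference of -4.24 (SE 0.638, q = 0.0454) was the most negative among the genes named by size, and the near copy Rrm2l1 differed by -4.04. Dtymk, thymidylate kinase, had 8.89, 9.02 and 8.86 in shams, against 9.73, 9.76 and 9.86 in unoperated livers (difference -0.86, q = 0.0239). Fancd2 and Fanci, a pair of DNA crosslink repair proteins, fell by 1.07 and 0.82, and the sham mean of Fanci was 4.28, under a log2 intensity of 5. The 1 that rose was Mcm10, a loading factor of replication, with 7.89, 7.40 and 7.38 in shams, against 5.79, 6.35 and 6.17 in unoperated livers (difference 1.45, q = 0.0382).

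Tubulins, the subunits of microtubules, fell too: 5 of 21 probe sets passed, all lower (23.8%, against 0.782% of all), and the median was -0.62. Tubb2a had 7.87, 8.39 and 7.42 in shams, against 10.58, 10.31 and 10.49 in unoperated livers (difference -2.57, SE 0.24, q = 0.0237). Tuba1c had 12.35, 13.40 and 12.34 in shams, against 14.77, 14.65 and 14.43 in unoperated livers (difference -1.92, q = 0.0466), and its second probe set differed by -1.20 (q = 0.089). Tubb5 fell by 1.51 (q = 0.0332), Tubb6 by 1.28 (q = 0.0255) and Tubb3 by 0.62 (q = 0.0441). The tubulin folding cofactors Tbca and Tbcd fell by 0.86 and 0.54 (q = 0.0454 and 0.0452). Tubulin genes are close in sequence, and probes may read more than 1 of them.

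**Figure D3:**
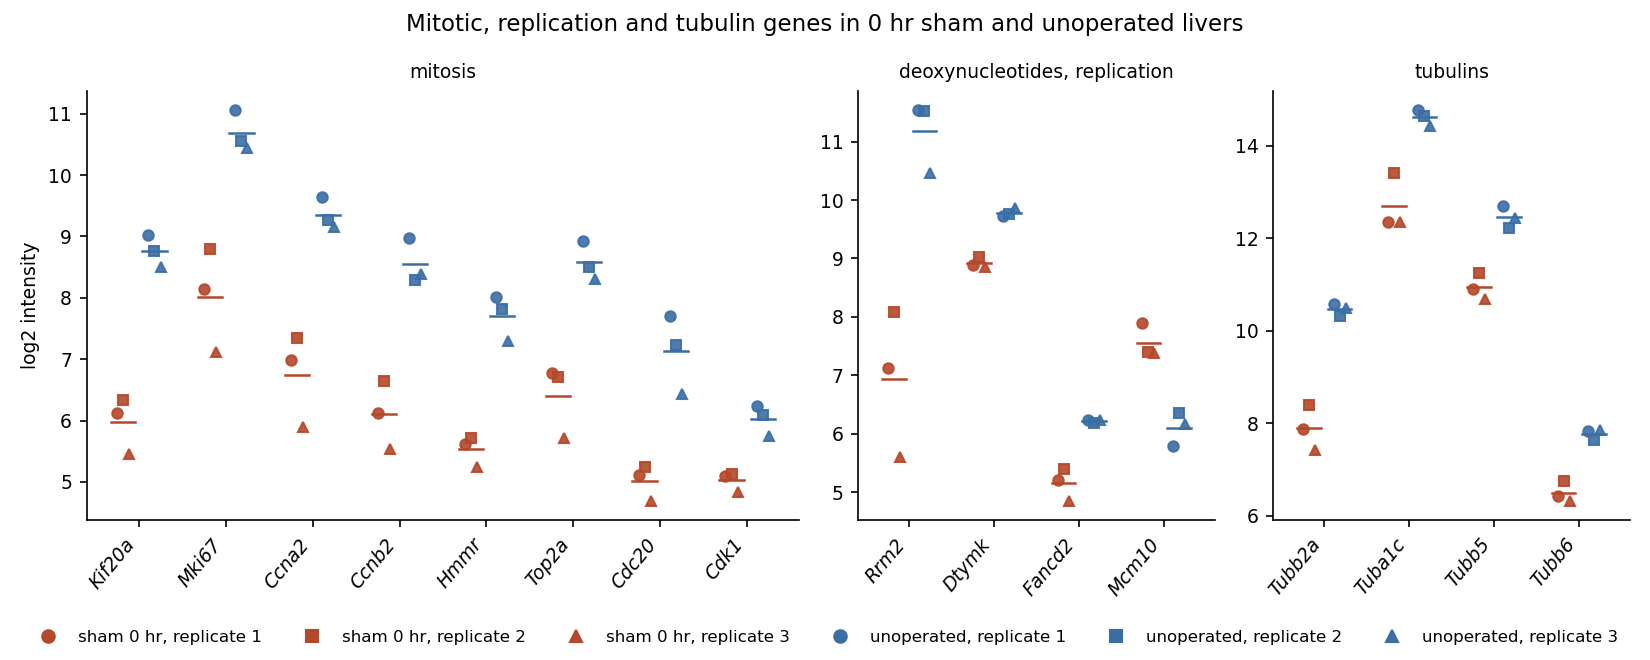
Log2 intensity (y axis) of mitotic, replication and tubulin genes in each of the 3 sham (red-brown, left) and 3 unoperated livers (blue, right), with the mean as a line. Shams lie below unoperated livers for every gene drawn except Mcm10, which lies above. The lack of overlap holds for every called probe set.

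Lipid and sterol synthesis showed the widest spread among the shams. In fatty acid synthesis 2 of 25 probe sets fell (Gpam and Mlxipl), which is 8% against 0.782% of all, and none rose. At an unadjusted p under 0.05, 20 were lower and 1 higher, against 2324 and 1701 of all 23409 probe sets. The median difference was -2.04. Gpam, which starts triglyceride assembly, had 12.76, 13.04 and 11.93 in shams, against 14.66, 14.60 and 14.65 in unoperated livers (difference -2.06, SE 0.272, q = 0.0376). Mlxipl, the gene of ChREBP, had 11.59, 12.08 and 11.93 in shams, against 12.88, 12.64 and 12.83 in unoperated livers (difference -0.91, q = 0.049). Members with larger differences, named after their values were seen, did not pass, and sham replicate 2 lay far from the other shams. Fasn, fatty acid synthase, had 6.70, 10.81 and 6.22 in shams, against 12.01, 12.09 and 13.37 in unoperated livers (difference -4.58, q = 0.132). Acly, which supplies acetyl-CoA for synthesis, had 8.71, 12.23 and 8.50 in shams, against 12.88, 13.47 and 13.71 (difference -3.54, q = 0.145). Srebf1, the gene of SREBP-1, had 6.00, 8.35 and 6.05 in shams, against 9.86, 8.72 and 9.73 (difference -2.64, q = 0.128). For these 3 genes every sham value was below every unoperated value. Of all probe sets, 22.1% had no overlap, in either direction. For Acaca, acetyl-CoA carboxylase, the groups overlapped: shams had 9.04, 11.88 and 8.63, against 11.50, 11.53 and 12.44 in unoperated livers. Without sham replicate 2, 21 of the 25 probe sets passed, Fasn with a difference of -6.03 (q = 0.00332), and without sham replicate 1 or 3, 0 and 1 did.

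Of 21 cholesterol synthesis probe sets, 2 fell (Dhcr7 and Mvk), which is 9.52% against 0.782% of all, and none rose. At an unadjusted p under 0.05, 17 were lower and 0 higher, against 2324 and 1701 of all 23409 probe sets. The median difference was -1.67. Dhcr7, the last enzyme of the pathway, had 9.81, 10.52 and 9.54 in shams, against 12.73, 12.61 and 12.21 in unoperated livers (difference -2.56, SE 0.269, q = 0.0255). Mvk, mevalonate kinase, had 7.42, 8.02 and 7.38 in shams, against 8.81, 9.07 and 8.97 in unoperated livers (difference -1.34, SE 0.184, q = 0.0391). Msmo1, a sterol demethylation enzyme named after its values were seen, had 10.53, 13.59 and 9.58 in shams, against values between 14.83 and 15.17 in unoperated livers (difference -3.77, q = 0.126). Srebf2, the gene of SREBP-2, had 8.27, 9.50 and 7.84 in shams, against 10.16, 10.12 and 10.35 (difference -1.67, q = 0.113). Without replicate 2, 16 passed, and without sham replicate 1 or 3, 0 did. Replicate 2 was again the sham nearest to the unoperated livers, with a list median of -0.73, against -1.94 and -2.37 in replicates 1 and 3. Soat2, which esterifies cholesterol, and Aacs, which makes acetoacetyl-CoA from ketone bodies, also fell, by 1.07 (q = 0.0241) and 1.41 (q = 0.0382).

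**Figure D4:**
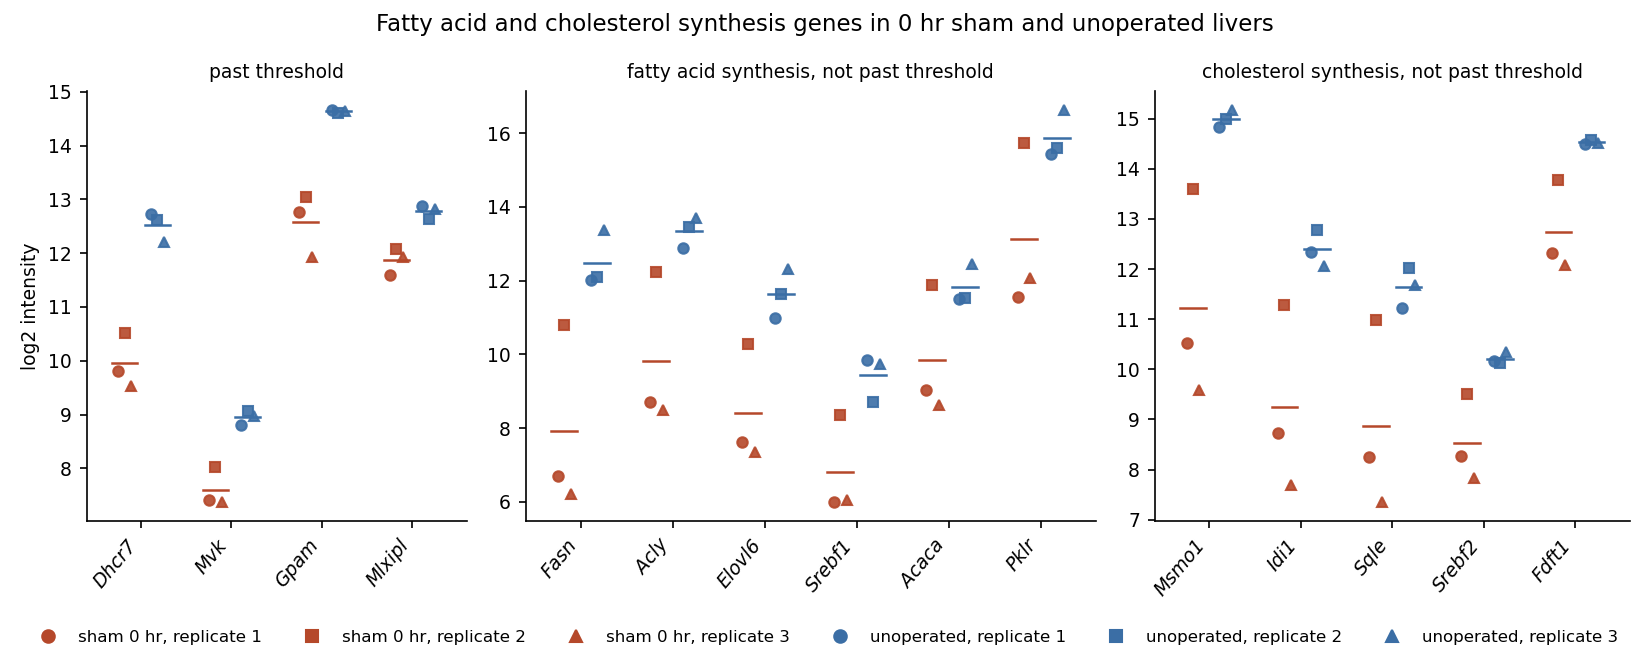
Log2 intensity (y axis) of fatty acid and cholesterol synthesis genes in each of the 3 sham (red-brown, left) and 3 unoperated livers (blue, right), with the mean as a line. Genes past the threshold are in the left panel. In the middle and right panels sham replicate 2 (square) lies above the other shams, between them and the unoperated livers or, as for Acaca at 11.88, among the unoperated livers.

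Among genes of antioxidant defense, Nfe2l2, the gene of Nrf2, fell, with 8.24, 8.50 and 8.46 in shams, against 9.59, 9.39 and 10.04 in unoperated livers (difference -1.27, q = 0.0395). Of 30 probe sets of Nrf2 targets and metallothioneins, 3 fell (10%, against 0.782% of all) and none rose, with a median of -0.14. At an unadjusted p under 0.05, 5 of them were higher and 8 lower, against 1701 and 2324 of all 23409 probe sets. The summed log2 level of this list was 21.15 to 21.22 in shams and 20.44 to 21.06 in unoperated livers, so the list did not move in 1 direction. Osgin1, an Nrf2 target, had 8.93, 7.78 and 7.77 in shams, against 10.62, 10.53 and 10.70 in unoperated livers (difference -2.45, SE 0.312, q = 0.0366). Gsta3 fell by 1.04 (q = 0.0282) and Nqo1 by 0.61 (q = 0.0399). The remaining lists each had few calls: Pgk1 of glycolysis fell among 28 HIF probe sets, Ifit2 among 27 interferon-stimulated, Rps9 among 55 ribosomal, Sdha among 42 respiratory chain and Tra2b and Hnrnpa1 among 32 splicing probe sets, with differences of -1.03, -1.17, -1.05, -0.58, -1.05 and -0.60. The share called lower was 3.57% for HIF, 3.7% for interferon-stimulated, 1.82% for ribosomal, 2.38% for respiratory chain and 6.25% for splicing probe sets. Over all probe sets it was 0.782%. HIF targets had a median of 0.06, with 16 positive and 12 negative differences. Interferon-stimulated genes had a median of 0.24, with 18 positive and 9 negative. At an unadjusted p under 0.05 these lists had 4 and 0 probe sets higher and 2 and 3 lower. The median of the respiratory chain was -0.27, with 18 probe sets lower and 2 higher at an unadjusted p under 0.05. That of the ribosomal proteins was -0.19, with 16 lower and 2 higher. Called genes outside these lists are not in their counts. Among them, named after values were seen, Rps12 differed by -0.57 (q = 0.0399). Tpi1 of glycolysis differed by -0.79 on each of its 2 probe sets (q = 0.0278 and 0.054). Cox8a, a subunit of cytochrome oxidase, had 6.91, 7.03 and 7.13 in shams, against 6.61, 6.54 and 6.81 in unoperated livers (difference 0.37, q = 0.149). None of 20 bile acid and transporter probe sets passed, with 2 higher and 6 lower at an unadjusted p under 0.05. Notch2, a receptor of cell fate signaling, fell by 1.51 (q = 0.0205), and Cfap95 and Ttc24, of unsettled role in liver, by 3.87 and 2.29 (q = 0.0191 and 0.0399). Cfap95 had 5.15, 3.96 and 4.09 in shams, with a mean also under a log2 intensity of 5, against 8.17, 8.33 and 8.31 in unoperated livers.

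No list of cell type markers had a called member, in any of 11 lists. The median difference was 0.20 for Kupffer cells, -0.07 for neutrophils, 0.07 for lymphocytes, 0.11 for endothelial cells, -0.14 for bile duct cells, 0.16 for red blood cells and platelets, 0.03 for exocrine pancreas and 0.01 for muscle and fat. The summed log2 level in shams was only 8.555 to 8.746 over 13 neutrophil and 7.762 to 7.948 over 12 pancreas probe sets. These average near or under a log2 intensity of 5, so their medians say little about those cells. Over all 23409 probe sets, 2324 were lower and 1701 higher at an unadjusted p under 0.05. Stellate cell and fibroblast markers had a median of -0.55, with 5 of 15 probe sets lower at that p and 0 higher. The summed level of these markers ranged over log2 values of 14.37 to 15.01 in shams and 14.71 to 15.56 in unoperated livers. Acta2, smooth muscle actin, had 6.96, 7.46 and 7.35 in shams, against 7.74, 8.20 and 8.10 in unoperated livers (difference -0.76, q = 0.103). The part of these cells in the fall of tubulins or mitotic genes was not tested. The list of mesothelial markers had a median of -0.26 and 3 of 11 probe sets lower at an unadjusted p under 0.05. It includes the keratins Krt8 and Krt18, with unoperated means of 11.54 and 14.67, which are not made by mesothelium alone. Sham replicate 3 was higher than the other shams for Kupffer cell markers (0.76, against -0.21 and -0.04) and for interferon-stimulated genes (0.70, against -0.04 and -0.15), and its part in the results was not tested.

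Later shams show which of these differences the 0 hr shams shared with rats killed longer after surgery. All surgeries were done in mid-morning, so time since surgery cannot be told apart from time of day or time since the last meal. Comparisons of each sham group with unoperated livers share the unoperated arrays, so the 0 hr shams were tested directly against the later ones, in 1 fit of the 12 sham arrays. They differed in 37 probe sets (0.158%) from the 0.5 hr shams, in 386 (1.65%) from the 2 hr shams and in 2105 (8.99%) from the 6 hr shams. Of the 25 circadian clock probe sets, 0, 0 and 12 differed at these times, and the part of time of day was not tested. Of the 87 probe sets that rose and the 183 that fell at 0 hr, 2 and 4 differed between 0 and 0.5 hr, 12 and 28 between 0 and 2 hr, and 39 and 45 between 0 and 6 hr. Without sham 0 hr replicate 1, 2 or 3 0, 530 and 6 probe sets differed from 0.5 hr. The corresponding counts were 53, 336 and 65 against the 2 hr shams, and 1016, 2464 and 1036 against the 6 hr shams. A q-value above the threshold does not show that shams of different times were alike.

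Nfkbia and Ppp1r15a lay nearer the unoperated level in later shams. Nfkbia had 9.77, 9.87 and 10.02 at 0 hr, 9.74, 9.10 and 9.10 at 0.5 hr, then 8.59, 8.43 and 8.35 at 2 hr, and finally 7.57, 8.15 and 8.51 at 6 hr. Its 0 hr level exceeded that at 2 hr by 1.43 (q = 0.0218) and that at 6 hr by 1.81 (q = 0.00163). Ppp1r15a exceeded its 2 hr level by 2.79 (q = 0.0158) and its 6 hr level by 2.36 (q = 0.00629). Serpina7 was high at 0 hr. In the 0.5 hr shams it stood at 7.79, 7.31 and 7.23, in the 2 hr shams at 8.81, 8.43 and 9.67, and in the 6 hr shams at 7.27, 8.33 and 7.24. It was 1 of the 37 probe sets that differed already from 0.5 hr (by 3.30, q = 0.0295). Igfbp1 averaged 17.44 at 0.5 hr, 18.25 at 2 hr and 15.34 at 6 hr, and only its 6 hr difference of 3.79 passed (q = 0.00216) among the 3 times. Irs2 and Tcim likewise exceeded their 6 hr levels, by 4.71 (q = 0.00324) and 3.03 (q = 0.000141). Nr4a1 at 0.5 hr held 1 high value, with 9.93, 6.38 and 6.97, and its difference from 6 hr was 1.93 (q = 0.131).

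The fallen genes took different courses. Kif20a averaged 6.99, 6.42 and 6.53 at 0.5, 2 and 6 hr, against 8.76 in unoperated livers, and no difference between 0 hr and a later time passed (q = 0.308, 0.738 and 0.512). Over the mitosis list the median differences from unoperated livers were -0.90 at 0 hr, -0.55 at 0.5 hr, -0.82 at 2 hr and -0.80 at 6 hr, and the highest list median among the later sham livers was -0.44. Rrm2 averaged 9.75, 8.33 and 10.92 at these times, against 11.18 in unoperated livers, and 0 hr lay 3.98 below 6 hr (q = 0.0216). Dhcr7 averaged 11.82, 10.52 and 11.40, against 12.52 in unoperated livers, and 0 hr lay 1.44 below 6 hr (q = 0.0468). Gpam averaged 13.71, 12.18 and 10.96 and Mlxipl 11.59, 11.54 and 10.37, and for Mlxipl 0 hr lay 1.50 above 6 hr (q = 0.00494). Osgin1, already low at 0 hr, was higher then than at 2 and 6 hr, by 1.72 (q = 0.0345) and 1.43 (q = 0.0263). Differences from unoperated livers at the later times were not tested.

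**Figure D5:**
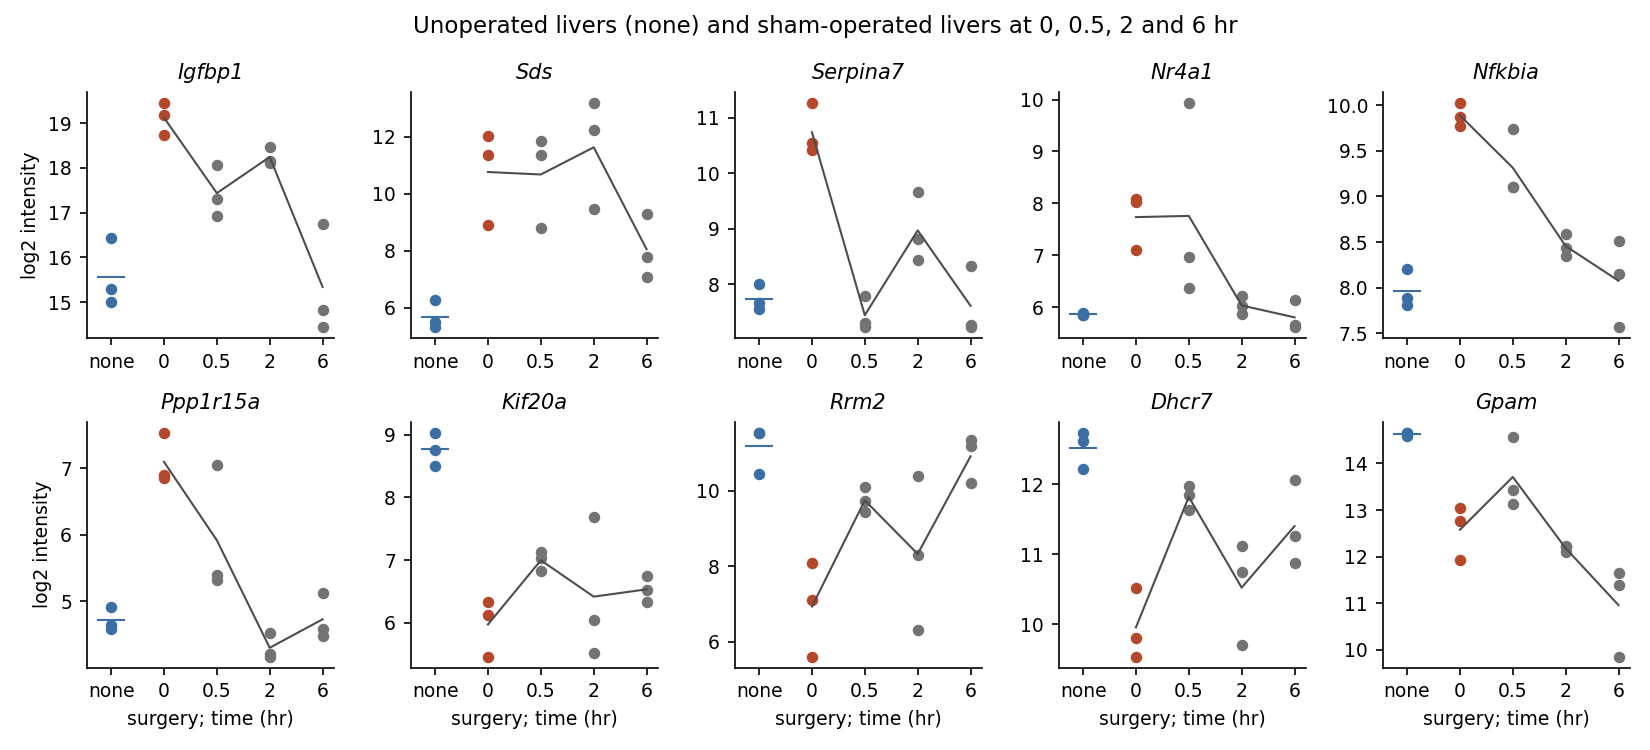
Log2 intensity (y axis) of 10 genes in unoperated livers (none, blue) and in shams at 0 hr (red-brown) and 0.5, 2 and 6 hr (grey), 1 point per liver, with the sham means joined. Nfkbia and Ppp1r15a are lower at 2 and 6 hr than at 0 hr, Rrm2 is higher at 6 hr, and Kif20a stays below the unoperated livers in every sham liver.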

How the data were processed

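Liver RNA was hybridized to 39 arrays, 3 per group, and the labels number biological replicates. Each sham or unoperated array was 1 rat, whereas by the study's methods reperfused and non-ischemic lobes came from the same ischemic rats. The fit of all 39 arrays treated these lobes as independent. The authors summarized the scans with SST-RMA in Affymetrix Expression Console 1.0 and deposited linear intensity values for 23409 probe sets of coding genes, between 4.59 and 999961.4. RMA scales all arrays together, which can hide overall shifts in RNA amount. Deposited intensities were converted to log2. No filter was applied to the main comparison. In limma 3.58.1 (R 4.3.3) the 3 sham 0 hr arrays were tested against the 3 unoperated arrays without pairing, and shams of 4 times were fitted together. The Benjamini-Hochberg threshold was 0.05 over all probe sets. Scripts were tested on simulated data. The number of arrays limits the precision.

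Of the probe sets, 19778 had 1 gene symbol, 419 several and 3212 none, and 97 symbols were updated through Entrez numbers. Named genes were those with 1 symbol and a mean log2 of at least 5 in the higher group: the 15 largest called differences in each direction, the called members of each of 32 gene lists (up to 6) or else up to 3 with the lowest p, and Cox8a, Fos and Nr4a1. Other called genes were named after their values were seen. The comparison and lists were chosen with earlier results of these data known, and the 3 lists of mitosis, DNA replication and tubulins after the values were seen. Alternatives were an interquartile range filter (11704 probe sets), leaving out dim probe sets, quantile normalization, median centring, a trended robust fit, more arrays in the fit, a replicate block and leaving out each array. The genome build of the arrays' annotation is not given in the sources used here, so coordinates are those of RefSeq promoters.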

Additional observations from a re-analysis of the deposited data

Results flagged for a closer look

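For the 102 named probe sets (101 genes), the 0 hr shams were compared with each later sham group, and 41 of 306 comparisons passed the threshold of limma's test of the difference itself, 2 at 0.5 hr, 7 at 2 hr and 32 at 6 hr. Differences are 0 hr minus the later sham on the log2 scale, with 3 rats per group. Against 0.5 hr, Serpina7 differed by 3.30 and Ttc24 by -1.76. Against 2 hr, Ppp1r15a differed by 2.79, Serpina7 by 1.77, Osgin1 by 1.72 and Nfkbia by 1.43, whereas Nags differed by -1.59, Icam1 by -0.92 and Rps9 by -0.78.

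Against 6 hr, Irs2 differed by 4.71, Igfbp1 by 3.79, Noct by 2.82, Ppp1r15a by 2.36, Nfkbia by 1.81, Tsc22d3 by 1.21, Apold1 by 1.03, Cd14 by 0.88 and Il6st by 0.68. Serpina7 differed by 3.13, the 2 probe sets of Tcim by 3.03 and 2.65, Mcm10 by 2.08, Pxmp4 by 1.86, Mlxipl by 1.50, Ifrd1 by 1.46, Osgin1 by 1.43, Ptp4a1l1 by 1.31, Nr1h4 by 0.96 and Pdgfrb by 0.89. Negative differences, with lower levels at 0 hr than at 6 hr, were found for Rrm2 (-3.98), Rrm2l1 (-3.87), Cfap95 (-2.43), Nqo1 (-2.12), Mvk (-1.51), Dhcr7 (-1.44), Krt18 (-1.31), S100a9 (-1.09), Tuba1c (-1.05), Nags (-0.94), Mmp8 (-0.91) and Abcc4 (-0.60).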

How the results depend on the processing

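The count of 270 probe sets became 427 after the interquartile range filter (239 shared), 468 without dim probe sets (266 shared), 131 with a trended robust fit (all shared), 954 with all 39 arrays in the fit (211 shared) and 979 with the sham and unoperated arrays (242 shared). Quantile normalization gave 87 higher and 123 lower and median centring 98 and 130, against 87 and 183 as reported. Members of the gene lists other than cell type markers, mitosis, replication and tubulins that passed, 32 of 604 as reported, numbered 51, 49, 18, 73 and 90 in the same order of settings. Leaving out 1 array gave 0 to 1750 probe sets, 0 to 149 list members, and a distance between groups over that within groups of 14.4 to 34.1. For later shams, where only arrays of 0 hr shams were left out, the ranges were 0 to 530 at 0.5 hr, 53 to 336 at 2 hr and 1016 to 2464 at 6 hr. The cause was not tested.

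With the replicate block 1 probe set, 0 list members and 7 probe sets against 0.5 hr passed, and the counts at 2 and 6 hr were 302 and 2133. Deviations of same-numbered sham and unoperated rats from their group means had correlations of -0.04, 0.01 and 0.03. With 3 rats per group these cannot show whether the numbers stand for more than the naming of animals, which the labels do not state. Of 59 named probe sets past the threshold, 46 still passed with quantile normalization, 52 with centring and 39 with the trended robust fit. With 1 array left out, Mmp8 (difference -0.10) ranged from -0.33 to 0.06, changing sign to 0.06 without sham 0 hr replicate 1 and 0.01 without unoperated replicate 3. Sox9 (difference -0.13) ranged from -0.25 to 0.00, with 0.00 without unoperated replicate 3.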
